A study of Homo sapiens with 6 samples.

Results

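The genes KLK2, KLK3 and KLK4, which encode the kallikreins made in quantity by prostate epithelium, were read from the table by symbol, 3 genes of 14456 in all. Polyadenylated RNA had been sequenced from C4-2, a human prostate cancer line grown out of LNCaP cells that no longer needs androgen to form tumours, in 3 libraries from cells given IPI-9119 at 100 nM and 3 libraries from cells given 0.1% DMSO, the vehicle. Both treatments lasted 6 days in medium with serum. IPI-9119 inhibits fatty acid synthase, the enzyme that makes palmitate, and the comparison asked how the transcripts of these cells differed under that inhibition. Every library came from the same cell line, and the labels do not say whether replicates were separate cultures, so each p-value reflects only how far these libraries scattered, which could be a technical scatter.

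Kallikreins are secreted serine proteases encoded side by side on chromosome 19. KLK3 encodes prostate-specific antigen, a chymotrypsin-like protease that cleaves the semenogelins of the seminal clot and is measured in blood as a marker of prostate cancer. KLK2 encodes a trypsin-like protease that can activate the precursor of prostate-specific antigen. KLK4 encodes a trypsin-like protease known from the maturation of tooth enamel and also made in the prostate. In prostate cells androgens induce these genes through promoter elements and more distant enhancers. Response elements for androgens, and for glucocorticoids, are inverted repeats close to the hexamer AGAACA.

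KLK3 lies at chr19:50854915-50860764 on the plus strand, KLK2 at chr19:50861568-50880567 on the plus strand and KLK4 at chr19:50906352-50910738 on the minus strand (GRCh38, GENCODE 29). All 3 are protein-coding (ENSG00000142515, ENSG00000167751 and ENSG00000167749). KLK2 begins 803 bases past the end of KLK3. No other gene of that annotation overlaps the 3 genes. The promoters are shown to compare their sequences, which are alike for KLK3 and KLK2 and differ from these for KLK4. Whether these sequences bear on the fall of the 3 genes was not tested. The windows, credited to RefSeq (GRCh38.p14), run from 250 bases before the start to 50 bases after it, are written 5′ to 3′ on the strand of the gene, and cover chr19:50854665-50854964 for KLK3, chr19:50873189-50873488 for KLK2, and chr19:50910689-50910988 and chr19:50911346-50911645 for the 2 starts of KLK4. Capitals mark the best match to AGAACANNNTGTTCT, a palindrome that reads the same on both strands, where it had at most 3 mismatches over its 12 fixed letters.
KLK3: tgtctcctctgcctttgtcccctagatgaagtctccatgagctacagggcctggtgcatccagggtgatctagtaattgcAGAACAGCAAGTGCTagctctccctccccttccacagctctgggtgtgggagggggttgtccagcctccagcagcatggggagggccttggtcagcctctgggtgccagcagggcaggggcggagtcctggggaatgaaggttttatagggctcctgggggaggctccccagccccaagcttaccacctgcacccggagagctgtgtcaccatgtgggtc
KLK2: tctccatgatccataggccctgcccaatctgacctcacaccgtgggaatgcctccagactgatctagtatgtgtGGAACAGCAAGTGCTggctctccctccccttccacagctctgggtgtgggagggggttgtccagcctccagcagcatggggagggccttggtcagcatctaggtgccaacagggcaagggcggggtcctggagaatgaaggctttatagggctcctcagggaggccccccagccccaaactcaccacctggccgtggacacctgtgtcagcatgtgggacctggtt
KLK4, start nearer the gene body: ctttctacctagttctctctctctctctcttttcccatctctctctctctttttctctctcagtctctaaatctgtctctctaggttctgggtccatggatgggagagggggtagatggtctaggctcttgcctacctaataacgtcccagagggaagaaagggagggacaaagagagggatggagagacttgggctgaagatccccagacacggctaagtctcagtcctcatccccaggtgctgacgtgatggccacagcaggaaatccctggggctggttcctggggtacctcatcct
KLK4, start further upstream: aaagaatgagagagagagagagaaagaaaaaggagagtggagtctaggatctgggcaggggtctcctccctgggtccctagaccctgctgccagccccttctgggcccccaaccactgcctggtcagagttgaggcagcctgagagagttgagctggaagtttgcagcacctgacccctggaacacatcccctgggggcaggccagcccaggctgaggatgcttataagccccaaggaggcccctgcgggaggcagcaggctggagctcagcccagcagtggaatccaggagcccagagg
The KLK3 window held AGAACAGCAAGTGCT at -170 to -156 from the start, with 2 mismatches, and the KLK2 window held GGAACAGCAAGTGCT at -176 to -162, with 3 mismatches. Windows with at most 2 mismatches made up 1.41% of 35116 promoter windows, and those with at most 3 mismatches 10.8%. The best matches in the KLK4 windows had 6 and 5 mismatches, so these letters are not in those windows within the limit set. The KLK3 and KLK2 windows were identical at 79.3% of aligned positions and shared an unbroken run of 80 bases. Against the KLK3 window, the KLK4 windows reached 42.4% and 49.1%, with shared runs of 8 and 9 bases. The RefSeq start of KLK2, at chr19:50873439, lies inside the GENCODE extent of the gene, whose longest forms begin further upstream. The gap of 803 bases to KLK3 is counted from the GENCODE extent, not from the RefSeq start.

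Values are normalised counts, meaning reads per gene over a library's size factor, as deposited. The recovered totals were 19090749 to 20422882 reads in the IPI-9119 libraries and 21952620 to 23448035 reads in the DMSO libraries. Of 14437 genes tested, 31.4% were lower and 31.3% higher with IPI-9119, 62.8% in either direction, at a Benjamini-Hochberg adjusted p under 0.05 in limma on log2(normalised count + 1). The median log2 fold change of all tested genes was 0.0017. The 5 markers of the C4-2 lineage used here, FOLH1, TMPRSS2, HOXB13, KRT8 and KRT18, were all measured and summed to 58778 to 60314 normalised counts with IPI-9119, against 77548 to 80496 with DMSO. Of these FOLH1 was higher, at 26357 with IPI-9119 and 19514 with DMSO (log2 fold change 0.43), and the other 4 were lower. Of 7 fibroblast and smooth muscle markers 4 were measured, summing to 124.3 to 189.8 normalised counts with IPI-9119 and 130.2 to 152.5 with DMSO. ACTA2 alone of the 4 passed the test, at 16.2 with IPI-9119 and 5.19 with DMSO (log2 fold change 1.69, limma adjusted p 0.00985). Of 3 endothelial markers VWF was measured, at 39 to 60.5 with IPI-9119 and 44.3 to 48.7 with DMSO, and of 3 neuroendocrine markers SYP, at 44 to 45.3 with IPI-9119 and 37.5 to 57.9 with DMSO. The 3 basal epithelial and 4 leukocyte markers were not analysed here. The part of other cell types in the kallikrein values was not tested. Fold changes varied with transcript length, from a median log2 value of 0.13 in the shortest of 5 equal bins of genes (exons of 66 to 2344 nt) to -0.17 in the longest (7885 to 49287 nt), and values corrected for length and GC content are given beside the kallikreins for that reason.

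KLK3, KLK2 and KLK4 were all lower with IPI-9119, and KLK4 by the largest factor of the 3. KLK3 had 66131, 62976 and 61621 normalised counts in the IPI-9119 libraries, against 125610, 124861 and 118177 in the DMSO libraries. The lowest DMSO library stood far above the highest IPI-9119 library, and the replicates of each group lay close together. The mean was 63576 ± 2314 with IPI-9119 and 122882 ± 4093 with DMSO (SD, n = 3 each), 51.7% of the DMSO level. In bulk RNA, fewer cells making a transcript and less transcript per cell cannot be told apart, here or below.

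KLK2 had 9919, 9348 and 9249 normalised counts in the IPI-9119 libraries, against 22443, 21972 and 21502 in the DMSO libraries. Again the groups did not overlap, and the libraries kept the same order as for KLK3 within each group. The mean was 9505 ± 361.8 with IPI-9119 and 21972 ± 470.6 with DMSO (SD, n = 3 each), 43.3% of the DMSO level. The log2 fold change was -1.21 (SE 0.0444, limma adjusted p 3.65e-11), against -0.95 for KLK3 (SE 0.0441, limma adjusted p 3.74e-10).

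KLK4 had 1009, 1393 and 1444 normalised counts in the IPI-9119 libraries, against 4432, 4910 and 4397 in the DMSO libraries. The groups did not overlap, and IPI-9119 replicate 1 was lower than the other two. The mean was 1282 ± 237.8 with IPI-9119 and 4580 ± 286.5 with DMSO (SD, n = 3 each), 28% of the DMSO level. The log2 fold change was -1.85 (SE 0.124, limma adjusted p 1.54e-06), and -1.69 without IPI-9119 replicate 1. In that library KLK4 lay 0.33 below its group mean on the log2 scale, a deviation of -0.33, while KLK2 and KLK3 lay 0.06 above theirs. After the length and GC correction the deviation of KLK4 was -0.35. Over all tested genes IPI-9119 replicate 1 differed from the mean of its other 2 replicates by 0.149, a median absolute log2 difference. For IPI-9119 replicates 2 and 3 that value was 0.0995 and 0.113.

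**Figure D1:**
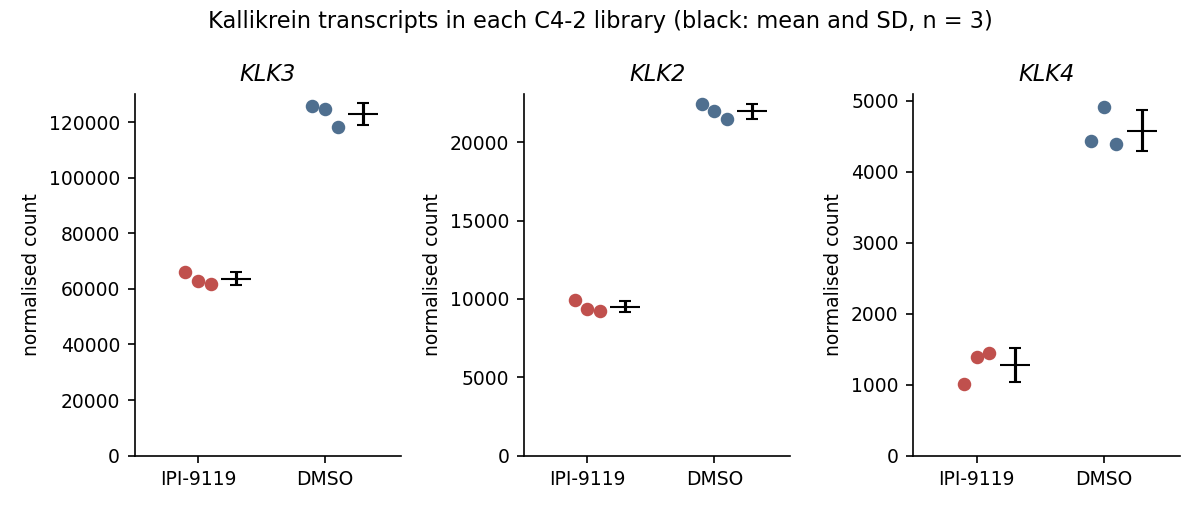
Normalised counts (vertical axes, linear from 0) of KLK3, KLK2 and KLK4 in each of 3 IPI-9119 and 3 DMSO libraries. Each point is a library and black marks give the mean and SD; the 2 groups are apart for each gene, and KLK4 shows the widest relative spread within the IPI-9119 group.

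Among all 14437 tested genes, 2.33% had a lower log2 fold change than KLK4, 6.53% a lower one than KLK2 and 10.2% a lower one than KLK3. Of all genes, 33.9% had IPI-9119 libraries that all lay below the DMSO libraries, as these 3 did. After the correction for length and GC content the log2 fold changes were -0.97 for KLK3, -1.09 for KLK2 and -1.94 for KLK4, with limma adjusted p-values of 1.38e-11, 1.5e-11 and 6.73e-06. Their exonic lengths were 4639, 6394 and 1935 nt, so KLK4, with the shortest exons of the 3, fell while the shortest genes as a class had a positive median.

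Per length the order of the 3 transcripts was the same in every library, with KLK3 above KLK2 and KLK2 above KLK4. KLK3 gave 13705 ± 498.8 normalised counts per kb of merged exons with IPI-9119 and 26489 ± 882.2 with DMSO (SD, n = 3 each). KLK2 gave 1487 ± 56.6 per kb with IPI-9119 and 3436 ± 73.6 with DMSO, and KLK4 gave 662.5 ± 122.9 per kb with IPI-9119 and 2367 ± 148.1 with DMSO. Neighbours in that order were further apart than their SDs in both groups. Merged exons overstate the length of any single transcript, since 23 transcripts of KLK2 and 16 of KLK3 are annotated. Per kb of the longest annotated transcript, KLK4 gave 951.7 ± 176.6 with IPI-9119 and 3400 ± 212.7 with DMSO, against 3149 ± 119.8 and 7278 ± 155.9 for KLK2 in the same groups, which leaves the order as it was.

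KLK3 was among the most abundant transcripts of these cells. By normalised count it ranked 19 to 21 in the IPI-9119 libraries and 3 in every DMSO library. KLK2 ranked 340 to 359 in the IPI-9119 libraries and 108 to 114 in the DMSO libraries. KLK4 ranked 3027 to 4007 with IPI-9119 and 784 to 897 with DMSO. The 3 genes together took 0.351% ± 0.00676 of all reads with IPI-9119 and 0.715% ± 0.0263 with DMSO (SD, n = 3 each). An exact permutation test over the 6 libraries, two-sided, gave p = 0.1, the smallest that 3 against 3 allows.

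The close relation of KLK2 and KLK3 bears on how well their reads can be told apart. Of all 50-base windows in the annotated transcripts of KLK3, 0.215% also occurred unchanged in transcripts of KLK2, and of the KLK2 windows 0.159% occurred in KLK3. No window of 100 or 150 bases was shared between them, and KLK4 shared none of any of these lengths with KLK2, KLK3, KLK15 or the pseudogene KLKP1. The sources used here give neither the read length nor the handling of reads with mismatches.

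The fitted log2 fold changes of the 3 genes were unequal. Within a library the ratio of 2 genes does not depend on the scaling between libraries, so these ratios were compared for the 3 pairs. The log2 ratio of KLK2 to KLK3 was -2.74, -2.75 and -2.74 in the IPI-9119 libraries, against -2.48, -2.51 and -2.46 in the DMSO libraries. The ratio was thus lower in every IPI-9119 library, by 0.26 on the log2 scale, a difference of -0.26, where the SD was 0.00903 with IPI-9119 and 0.0241 with DMSO. After the length and GC correction that difference was -0.12.

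The log2 ratio of KLK4 to KLK3 was -6.03, -5.50 and -5.41 in the IPI-9119 libraries, against -4.82, -4.67 and -4.75 in the DMSO libraries, a difference of -0.90. Between KLK4 and KLK2 the difference was -0.64. The groups did not overlap in any of the 3 pairs, and each exact permutation test, two-sided, gave p = 0.1, the smallest possible here, and 0.1 again after adjustment over the 3 pairs. The make-up of the kallikrein reads can be read in the same way. KLK3 supplied 85.5% ± 0.307 of the reads of the 3 genes with IPI-9119 and 82.2% ± 0.182 with DMSO, KLK2 supplied 12.8% ± 0.0962 with IPI-9119 and 14.7% ± 0.222 with DMSO, and KLK4 supplied 1.73% ± 0.37 with IPI-9119 and 3.06% ± 0.165 with DMSO (SD, n = 3 each; exact permutation p = 0.1 for each gene).

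**Figure D2:**
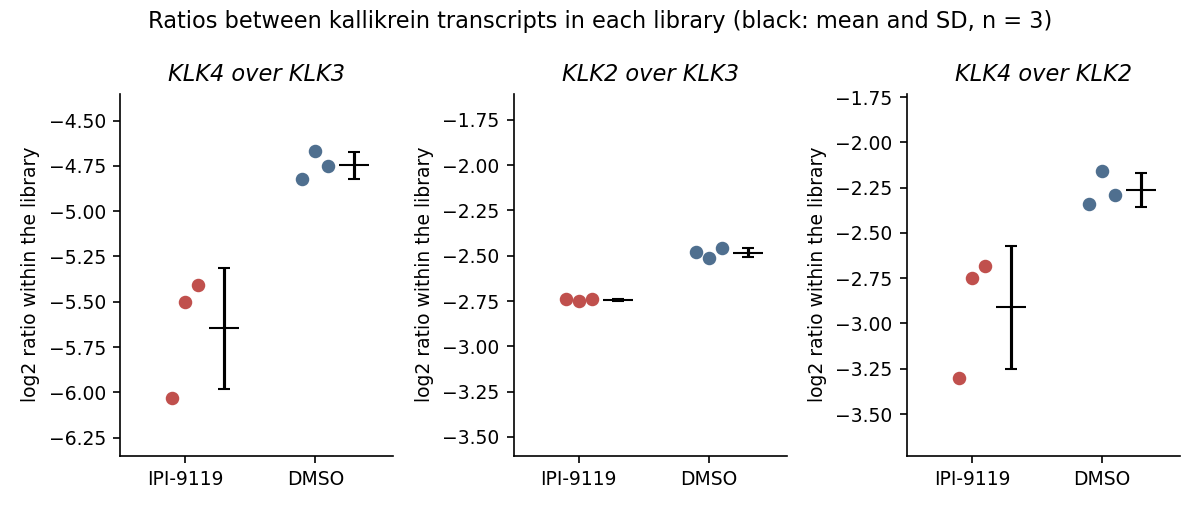
Log2 ratio of 2 kallikrein transcripts within each library (vertical axes, each spanning the same range), for 3 IPI-9119 and 3 DMSO libraries, with mean and SD in black. The KLK2 to KLK3 ratio is -2.74 to -2.75 with IPI-9119 and -2.46 to -2.51 with DMSO, while ratios with KLK4 spread more in the IPI-9119 group.

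Of the other kallikrein genes, 4 were measured, all at far lower levels, and 0 of 4 fell in limma, edgeR or DESeq2, with 0 also at an unadjusted limma p under 0.05. Over all genes 31.4% were lower, so a count of 0 among 4 genes says little. KLK15, whose protease can activate the precursor of prostate-specific antigen and which lies next to KLK3, had 153.9, 168.0 and 160.6 normalised counts with IPI-9119, against 157.3, 172.7 and 193.8 with DMSO. These libraries overlapped, and the log2 fold change was -0.11 (SE 0.123, limma adjusted p 0.44). The transcribed pseudogene KLKP1, which lies between KLK2 and KLK4, had 114.9, 118.9 and 115.5 normalised counts with IPI-9119, against 104.6, 81.1 and 102.9 with DMSO. Its libraries did not overlap, but the log2 fold change of 0.28 missed the threshold (SE 0.149, limma adjusted p 0.116).

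KLK12, a further kallikrein, rose, on very few reads. It had 33, 27 and 18 reads in the IPI-9119 libraries, against 12, 9 and 6 in the DMSO libraries, a log2 fold change of 1.66 in normalised counts (SE 0.364, limma adjusted p 0.00121). KLK1, the tissue kallikrein that releases kinins, had 12, 27 and 19 reads with IPI-9119, against 43, 37 and 26 with DMSO. Its log2 fold change was -0.65 (SE 0.328, limma adjusted p 0.0985), and it passed the threshold without IPI-9119 replicate 2 (-0.92, limma adjusted p 0.0347) and once corrected for length and GC (-0.75, limma adjusted p 0.0493). Summed over libraries KLK12 had 78 reads with IPI-9119 and 27 with DMSO, and KLK1 58 with IPI-9119 and 106 with DMSO.

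Around the block, 14 other genes within 500 kb of the start of KLK3 were measured, and 4 fell, 1 rose and 9 did not pass the test, with a median log2 fold change of -0.10. The background shares were 31.4% lower and 31.3% higher over all genes. On the side of KLK15 the 3 nearest measured genes were KLK1, C19orf48P and ACP4. C19orf48P fell slightly, with a log2 fold change of -0.34. ACP4, an acid phosphatase gene, had a mean of 13.4 ± 3.57 normalised counts with IPI-9119 and 45.9 ± 14.3 with DMSO (SD, n = 3 each), a log2 fold change of -1.69. On the side of KLK4 the nearest measured genes were KLK12, CTU1 and VSIG10L, at 174, 243 and 477 kb from the start of KLK3. Genes that lie between these were not analysed here. CTU1, which encodes a transfer RNA modifying enzyme, fell with a log2 fold change of -0.69. VSIG10L had 291.0, 326.1 and 315.6 normalised counts with IPI-9119, against 716.8, 735.0 and 681.5 with DMSO, a log2 fold change of -1.19. The 6 measured genes more than 100 kb beyond the KLK15 side of KLK3, from POLD1 to CLEC11A, all missed the threshold, with log2 fold changes of -0.13 to 0.18, and 2 of them were called higher once corrected for length and GC, POLD1 (0.79, limma adjusted p 6.68e-06) and EMC10 (0.65, limma adjusted p 2.17e-05).

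**Figure D3:**
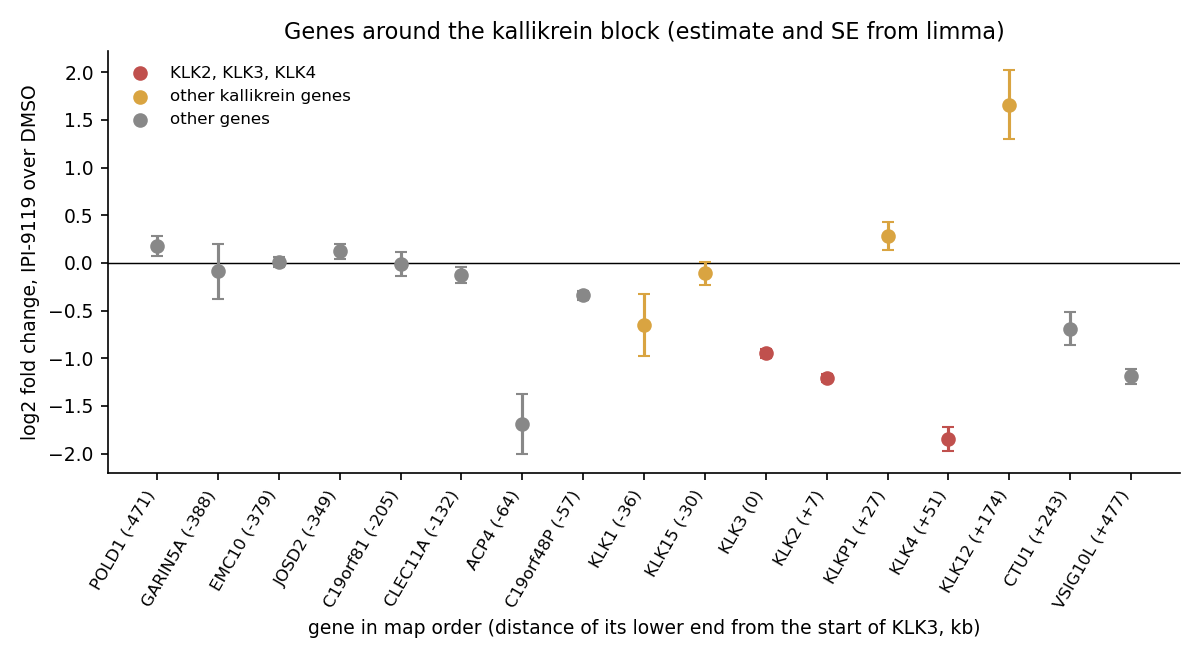
Log2 fold change of IPI-9119 over DMSO (vertical axis, estimate and SE from limma) for the measured genes within 500 kb of the start of KLK3, in map order, with distances in kb in brackets. KLK3, KLK2 and KLK4 lie at -0.95 to -1.85, with KLK15 at -0.11 and KLKP1 at 0.28 among them, and KLK12 at 1.66.

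Several regulators of the kallikrein genes were lower as well. FOXA1, which encodes a factor that opens chromatin at prostate enhancers, had 4037 ± 288.7 normalised counts with IPI-9119 and 9188 ± 405.4 with DMSO (SD, n = 3 each), a log2 fold change of -1.19. HOXB13, a homeobox gene of the prostate lineage, had 5119 ± 25.1 with IPI-9119 and 6936 ± 75.5 with DMSO, a log2 fold change of -0.44. Of 34 tested genes on a list of transcription factors and cofactors at kallikrein enhancers, 29 fell, 1 rose and 4 did not pass. That is 85.3% lower and 2.94% higher. Over all genes 31.4% were lower and 31.3% higher, and the median log2 fold change of the list was -0.78. The list also holds genes of chaperones and cochaperones, of which HSP90AA1 (-0.74), HSP90AB1 (-0.37) and FKBP4 (-0.15) fell. It holds the corepressor gene NCOR1 (-2.03) too, which fell. The acetyltransferase gene CREBBP (-3.91), the coactivator gene ZMIZ1 (-3.82) and the histone methyltransferase gene KMT2D (-3.29) fell by the largest factors of the list. Their exonic lengths of 11048 to 20485 nt place them in the longest of the 5 length bins. Corrected for length and GC, their log2 fold changes were -3.10 for CREBBP, -3.04 for ZMIZ1 and -2.10 for KMT2D. The cochaperone PTGES3 was higher (0.12, limma adjusted p 0.0263), but lower after that correction (-0.13). PTGES3 missed the threshold without IPI-9119 replicate 2 (limma adjusted p 0.0527), DMSO replicate 2 (0.107) or DMSO replicate 3 (0.0853). With no trend and no robust moderation in limma it missed the threshold too (adjusted p 0.112).

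Other androgen-induced genes were counted too, on a list that shares SPDEF, PIAS1 and ZMIZ1 with the list of factors and cofactors. Of 63 tested, 45 fell, 10 rose and 8 did not pass, 71.4% lower and 15.9% higher. The median log2 fold change was -0.47, against 31.4% lower, 31.3% higher and a median of 0.0017 over all genes. ZMIZ1 (-3.82), the transcription factor gene MAF (-2.05) and the cochaperone gene FKBP5 (-1.83) fell most, and the retinal reductase gene DHRS3 rose (1.80). Within that list only ZMIZ1 and MAF had lower log2 fold changes than KLK4, 11 genes had lower ones than KLK2, and 17 had lower ones than KLK3. TMPRSS2, a membrane serine protease gene that is also androgen-induced, had 14581 ± 358.6 normalised counts with IPI-9119 and 29241 ± 1618 with DMSO (SD, n = 3 each), a log2 fold change of -1.003.

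Genes of other proteases, inhibitors and substrates were counted in the same way. Of 7 other serine protease genes, 3 fell and 3 rose, and 1 did not pass, 42.9% lower and 42.9% higher, against 31.4% lower and 31.3% higher over all genes. PRSS23 had 424.3 ± 17.4 normalised counts with IPI-9119 and 34 ± 0.938 with DMSO (SD, n = 3 each), a log2 fold change of 3.60. TMPRSS4 rose by 2.34 on few reads, 93 summed over the IPI-9119 libraries and 21 over the DMSO libraries. Of the 3 that fell, TMPRSS2 alone was also called lower once corrected for length and GC, and HPN (-0.05) and ST14 (0.11) missed the threshold. Of 5 inhibitor genes, 2 fell, 2 rose and 1 did not pass, 40% lower and 40% higher beside the same shares over all genes. SERPINE2, which encodes protease nexin-1, rose (2.40), and SPINT1, which encodes a Kunitz-type inhibitor, fell (-0.49). SERPINB6 fell by 0.26 on the log2 scale (-0.26), and its corrected value was -0.09, which missed the threshold (limma adjusted p 0.407).

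Of 11 substrate and receptor genes, 2 fell, 6 rose and 3 did not pass, 18.2% lower and 54.5% higher against 31.4% lower and 31.3% higher over all genes, with a median log2 fold change of 0.54. IGFBP3, which encodes an insulin-like growth factor binding protein cleaved by prostate-specific antigen, had 158.1, 138.5 and 137.5 normalised counts with IPI-9119, against 42, 25.5 and 24.8 with DMSO. Its log2 fold change was 2.24. IGFBP5 rose at low levels (1.66), and LAMA5, a laminin chain gene, fell (-2.91, and -1.14 once corrected for length and GC). The laminin gene LAMC1 (-0.23) was not called once corrected (-0.06), and the laminin gene LAMB1 rose (1.27, and 1.46 once corrected). F2RL1, which encodes the protease-activated receptor cleaved by KLK2 and KLK4, rose by 0.87.

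Of 13 tested genes on a list of prostate secretory products, 4 fell, 7 rose and 2 did not pass, which is 30.8% lower against 31.4% over all genes and 53.8% higher against 31.3%, with a median log2 fold change of 0.43. The list also holds genes of membrane proteins, the peptidase gene FOLH1 (0.43), which rose, and the zinc transporter gene SLC39A6 (-0.12), which fell. PIP, the prolactin-induced protein gene, had 77.9 ± 20.2 normalised counts with IPI-9119 and 4.01 ± 1.52 with DMSO (SD, n = 3 each), a log2 fold change of 3.99. AGR2 (3.83) and CLU (3.24) rose too, and GDF15 fell (-0.997). SPON2 fell (-0.31), but was called higher once corrected for length and GC (0.42, limma adjusted p 3.26e-06). DBI and CPE, which had not passed, were called lower once corrected (-0.26 and -0.23). MSMB, which encodes a further abundant protein of seminal fluid, rose by 2.11. Its level was low in these cells, at 129.0 normalised counts with IPI-9119 and 29.5 with DMSO. AZGP1, a zinc-binding glycoprotein gene, fell (-0.88), with 17057 ± 1112 normalised counts with IPI-9119 and 31472 ± 1318 with DMSO.

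**Figure D4:**
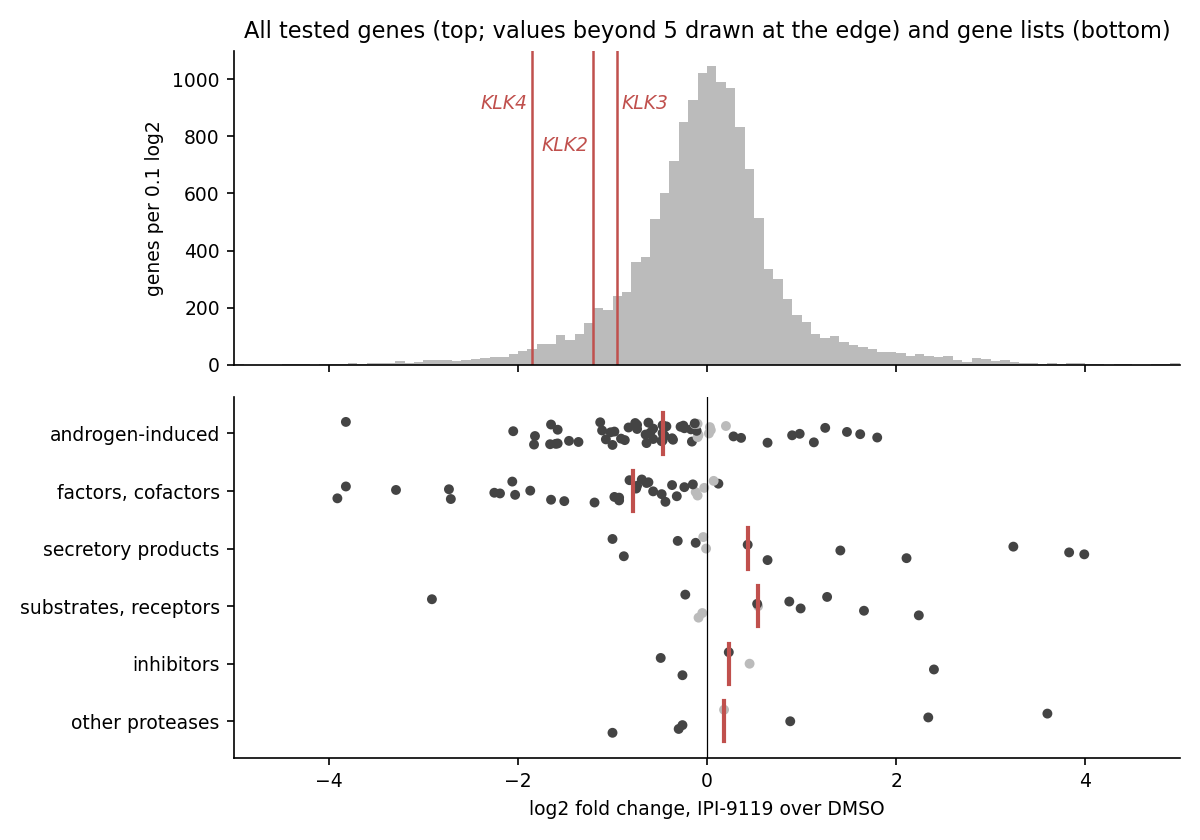
Top, number of tested genes per 0.1 of log2 fold change (IPI-9119 over DMSO), with KLK4, KLK2 and KLK3 as red lines at -1.85, -1.21 and -0.95. Bottom, the members of 6 gene lists on the same axis (dark points passed the test, light points did not) with each list's median as a red bar, from -0.78 for transcription factors and cofactors to 0.54 for substrates and receptors.

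The genes whose profiles over the 6 libraries were most like those of the kallikreins were sought among 10246 genes with a mean of at least 100, by the root mean square difference of log2 values centred on each gene's mean. For KLK2 these were SLC1A5, a glutamine transporter gene, at 0.0273, ASNS, of asparagine synthesis, at 0.0371, and BAIAP2, CRACR2B and ODC1 at 0.0465 to 0.052. For KLK3 they were GDF15 at 0.0324, the keratin gene KRT18 at 0.0378, and TMC4, PHGDH and ATF5 at 0.0379 to 0.0423. For KLK4 they were ZMIZ2, TCF20, MYH10, FGFRL1 and LENG8, at 0.0467 to 0.0562. Among the same 10246 candidates KLK3 took place 128 from KLK2, at 0.13, and KLK4 place 1854, at 0.38. From KLK3, KLK2 took place 281 and KLK4 place 5107. From KLK4, KLK2 took place 581 and KLK3 place 894. The 5 nearest are the best of all candidates, so a gene named beforehand would seldom be among them. These profiles are set mainly by the difference between the groups. With values corrected for length and GC 1 of the 5 genes named for KLK2, SLC1A5, was again among the 5 nearest, and 0 of those named for KLK3 or KLK4, and BAIAP2 had a log2 fold change of -0.15 in place of -1.29.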

How the data were processed

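The members and gene lists were chosen with earlier results of these data known. Deposited values are a signal: reads per gene over a library-wide size factor, a scaling by the authors read from the values, since all of them (100%) are whole multiples, within 0.01 read, of the value of a single read (0.8938 to 1.1), which gave the reads back. Named tools are STAR 2.5.2b, Trimmomatic 0.36, Subread 1.5.2, featureCounts and DESeq2, with build GRCh38, per the submitters' processing notes, with no role or order. Annotation release, strand setting and read length: not given in the sources used here. Replicates differed by more than counting noise (chi-square over its degrees of freedom, 2.3 to 9.59).

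limma 3.58.1 (R 4.3.3, trend and robust moderation) compared IPI-9119 with DMSO on log2(value + 1), two-sided, for genes with a mean of at least 10. This scale understates changes of low genes. edgeR 4.0.16 and DESeq2 1.42.0 were run on the recovered reads as alternatives, and all were tested on simulated data. Permutation tests used scipy 1.17.1. Corrected values had a smooth trend of log2 deviations over length and GC content, fitted per library with natural splines of 4 df, taken off, for the 99.6% of tested genes with both values.

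Named genes are the 3 kallikreins, other family members, the nearest neighbours, from each list the 3 that passed with the biggest absolute change and the biggest opposite one, and the 5 nearest profiles. FOXA1, HOXB13, TMPRSS2, F2RL1, AZGP1, MSMB, FOLH1, ACTA2, SLC39A6, HPN, ST14, LAMC1, POLD1, EMC10 and CLEC11A were added after their values were seen. So were SPON2, DBI, CPE, HSP90AA1, HSP90AB1, FKBP4, NCOR1 and LAMB1. Some members of the lists and markers are not reported here and were left out of every list count and sum.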

Additional observations from a re-analysis of the deposited data

How the results depend on the processing

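KLK2, KLK3 and KLK4 were lower and past the threshold in all 17 alternatives tried for each: pseudocounts of 0.5 and 8, a filter at a mean of 50 or none, a replicate block, TMM and quantile scaling, no trend and no robust moderation, edgeR, DESeq2, the length and GC correction, and each library left out. Their log2 fold changes ran from -1.27 to -1.09 for KLK2, from -0.998 to -0.929 for KLK3 and from -1.95 to -1.69 for KLK4. The replicate block, the filters and the moderation setting can alter only the p-values, not these fold changes. The largest adjusted p-values were 6.28e-05, 0.00013 and 0.000313, each from limma with no trend and no robust moderation. Genes lower over the whole table numbered 4022 to 4906 over these alternatives, and genes higher 3930 to 4797.

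Same-numbered replicates correlated in their deviations by 0.141, 0.0634 and 0.00443, so the numbers were not taken to pair the libraries. In this balanced design a replicate block cannot change the log2 fold changes, which stayed at -1.209, -0.951 and -1.852 for KLK2, KLK3 and KLK4. With the block the genes lower numbered 4799 in place of 4539. The differences between kallikreins kept their sign in all 10 alternatives each, from -0.27 to -0.121 for KLK2 against KLK3 and from -1.02 to -0.709 for KLK4 against KLK3. PTGES3 reversed after the length and GC correction (-0.126), and so did SPON2 (0.42). The cause was not tested. Leaving out 1 library gave -1.240 to -1.190 for KLK2, -0.980 to -0.929 for KLK3 and -1.947 to -1.689 for KLK4. KLK1 and KLK12 rest on few reads, and both fall outside a filter on a mean of at least 50.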
